A study of Mus musculus with 24 samples.

Results

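The C/EBP family is a group of basic leucine zipper transcription factors that bind DNA as pairs. Its members were read here in 24 RNA-seq libraries of a mouse collecting duct cell line treated with a vasopressin analogue or vehicle. The 5 symbols Cebpa, Cebpb, Cebpd, Cebpg and Ddit3 matched 6 Ensembl rows (GENCODE M21) among the 54432 genes in the tables of estimated counts and of TPM (transcripts scaled to a fixed library sum). The second Ddit3 row (ENSMUSG00000116429), a model of 105 exonic bases inside the main Ddit3 locus, had 0 counts in every library. A count of 0 allows up to 3 counts, or 0.109 to 0.174 CPM (counts scaled to library size) depending on the library. The other 5 rows all passed the filter on low counts, as did 29743 genes in all.

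The cells were mpkCCD, an immortalised line from mouse kidney cortical collecting duct (C57BL/6, labelled wild type, passage 10 to 11). They were kept 6 days on permeable filters and then 24 h in minimal medium. Either dDAVP (desmopressin, a vasopressin analogue selective for the V2 receptor) or vehicle was added on the basolateral side for 3, 6, 12 or 24 h, with 3 libraries in each of the 8 groups. Every group shares the line, the filter culture and the medium change. The dose is left out because the unit in the labels is uncertain, the labels name no subclone, and they do not say whether replicates were separate cultures, so p-values may measure technical spread only.

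C/EBP proteins share a dimerising zipper and bind sites related to TTGCNNAA. C/EBPα drives terminal differentiation and metabolic genes, C/EBPβ and C/EBPδ drive acute phase and inflammatory genes, and both of the latter are classic early genes of cAMP and cytokine signalling. C/EBPγ lacks a transactivation domain and pairs with ATF4, and CHOP (the product of Ddit3) is a stress-induced partner that blocks binding to classical C/EBP sites. In the collecting duct, vasopressin raises cAMP and the transcription of Aqp2, the water channel of principal cells, and C/EBP proteins are among the candidate regulators of Aqp2.

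Cebpb was the member with the largest dDAVP difference and Aqp2 is the candidate target of the family, so the promoters of both are shown. Each run covers 250 bases before to 50 after the transcription start (RefSeq, GRCm38.p6, plus strand in both). Capitals mark the cAMP response element core TGACG on either strand (CGTCA where it lies on the minus strand) and the TATA box TATAAA.

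Cebpb, chr2:167688665-167688964: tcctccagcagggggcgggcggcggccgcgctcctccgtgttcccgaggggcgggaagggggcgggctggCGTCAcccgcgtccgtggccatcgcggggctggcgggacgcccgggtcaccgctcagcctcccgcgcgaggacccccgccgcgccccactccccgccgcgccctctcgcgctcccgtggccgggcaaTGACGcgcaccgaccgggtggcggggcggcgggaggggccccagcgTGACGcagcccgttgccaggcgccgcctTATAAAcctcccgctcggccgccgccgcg

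Aqp2, chr15:99578806-99579105: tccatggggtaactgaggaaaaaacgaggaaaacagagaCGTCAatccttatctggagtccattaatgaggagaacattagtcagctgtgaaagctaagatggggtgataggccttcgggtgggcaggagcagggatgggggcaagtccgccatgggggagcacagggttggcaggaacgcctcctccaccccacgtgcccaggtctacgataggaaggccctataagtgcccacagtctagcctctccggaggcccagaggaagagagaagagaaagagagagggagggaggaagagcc

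The Cebpb run held 3 of these cores, which lie 180, 53 and 7 bases before the start, and a TATAAA 21 bases after it. Of 32851 mouse promoters of this length, 20.81% held at least 1 TGACG and 1.03% held at least 3. The Aqp2 run held 1, which lies 211 bases before the start. Promoters of 4 of the 5 members matched by symbol. Those of Cebpa, Cebpg and Ddit3 held no TGACG. The C/EBP site TTGCNNAA (10.80% of promoters), the full element TGACGTCA (1.79%, which overlaps TGACG) and the composite C/EBP-ATF site TTGCATCA (0.89%) were in none of the 4 or in Aqp2. CCAAT, found in 37.41% of promoters, was present 2 times in the Cebpg window and 1 time in that of Ddit3, and Cebpa had a TATAAA (13.62% of promoters) 30 bases before its start. Both strands were searched, and a match or its absence describes these letters only.

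The members lie at 5 positions (GRCm38). Cebpb (chr2:167688915-167690418, plus strand) has a single transcript of 1504 bases, with a GC content of 67.2% overall and 76.6% in its first 500 bases. Cebpa (chr7:35119293-35121928, plus) and Cebpg (chr7:35046422-35056573, minus) are close neighbours, with 75% and 63.6% GC over the first 500 bases of their longest transcripts. Cebpd (chr16:15887286-15891031, plus) has 71% there and Ddit3 (chr10:127290774-127296288, plus) 46.2%. Exons of Cebpb share 312 bases (20.7% of the gene) with Tmem189 on the opposite strand, those of Cebpd 562 bases (15%) with Spidr, and those of Ddit3 68 bases (4%) with Mars. No source states that counting used strand, so reads from these stretches cannot be told apart.

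Library totals ran from 17248060 to 27642311 estimated counts. All 14 principal cell markers listed had a count in every library, and 9 of them had a median of at least 1 TPM. Every listed podocyte, endothelium, and fibroblast and mural cell gene also had a count in every library, so detection alone does not set principal cells apart. The principal cell markers, Aqp2 among them, summed to 112 to 153 TPM in vehicle and 155 to 239 TPM in dDAVP libraries. The other 7 marker lists summed to between 0.731 and 23.2 TPM, the highest being immune cell genes (13.3 to 23.2 TPM in vehicle, 9.81 to 15.9 TPM with dDAVP). Aqp2 itself was higher with dDAVP at each time, by 4.38, 5.29, 4.31 and 5.35 on the log2 scale at 3, 6, 12 and 24 h (edgeR quasi-likelihood, adjusted p from 3.78e-15 to 6.17e-17). Other properties of the libraries differed and are given beside the results they move with. The share of counts on 1962 olfactory and vomeronasal receptor genes, which kidney cells are not expected to use, ranged from 0.14% to 0.933%. The mean log2 deviation of 309 expressed genes with at least 75% GC in their first 500 bases (the GC-rich level) ranged from -0.44 to 0.29. One short gene annotated as a microRNA, Gm24245, took 37.4% to 51.7% of all TPM, so the TPM of every other gene scales with it.

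Per length, the family was led by Ddit3 in 23 of the 24 libraries, at 20.7 to 32.8 TPM with a median of 27.3. In the first dDAVP library at 3 h Cebpb stood at 24 TPM and Ddit3 at 23.8 TPM. Cebpg followed at 9.58 to 14.2 TPM (median 12.1). Cebpb lay between 1.25 and 24 TPM (median 3.15) and was below Cebpg in 19 of the 24 libraries, so their order was not fixed. Cebpd ranged from 0.254 to 0.658 TPM and Cebpa from 0.044 to 0.221 TPM, in that order in every library. Cebpa rested on 3 to 21 estimated counts a library and Cebpd on 34.5 to 81.8, against 817.5 to 1530.3 for Cebpg and 470.1 to 907.5 for Ddit3. In CPM the highest library exceeded the lowest by 1.71-fold for Cebpg, 2.01-fold for Cebpd and 2.22-fold for Ddit3, by 6.53-fold for Cebpa at its low counts, and by 22-fold for Cebpb.

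**Figure D1:**
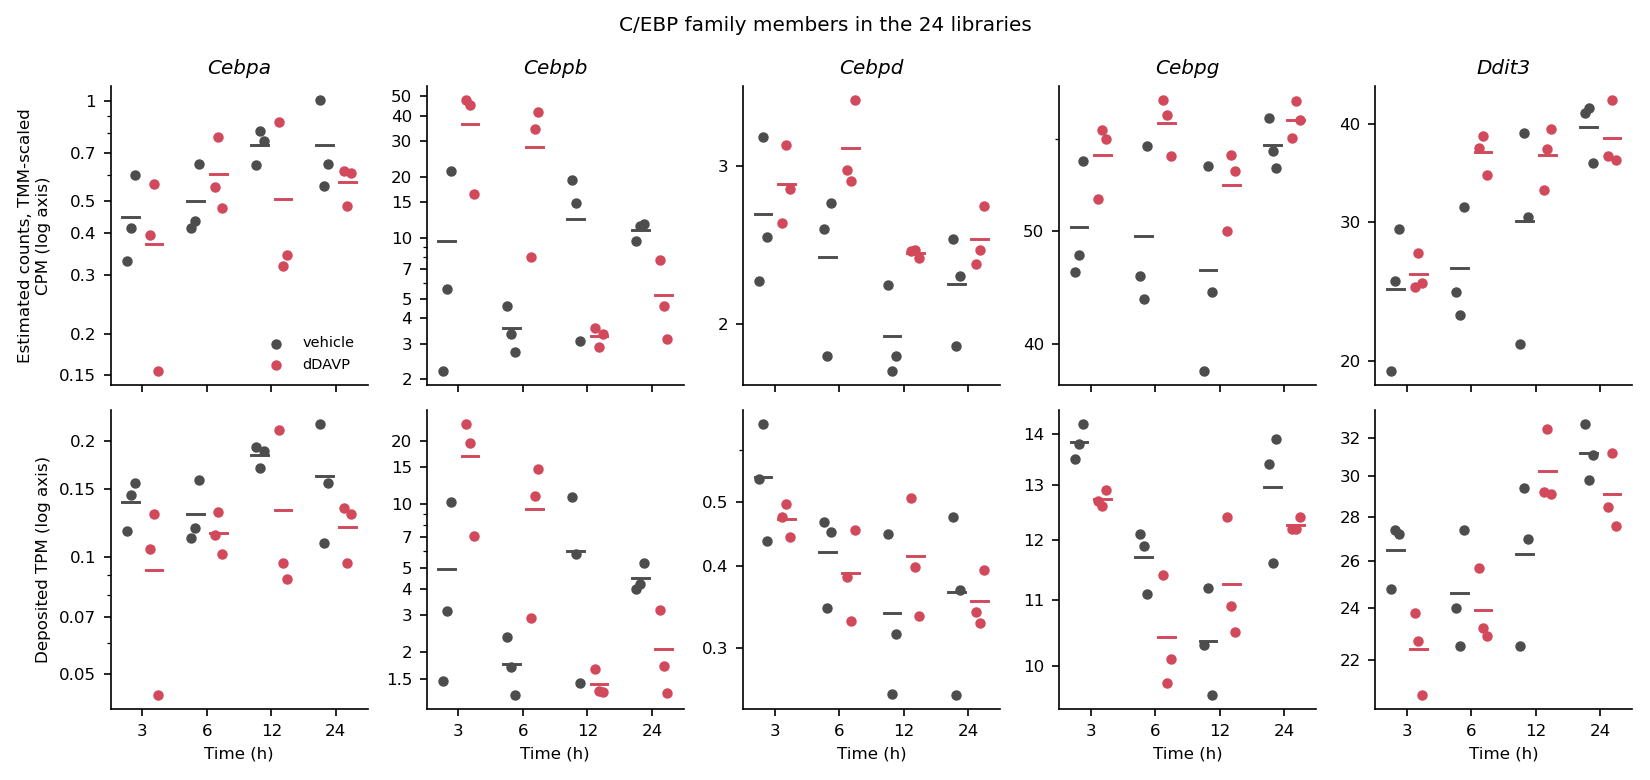
Level of each C/EBP family member in every library at 3, 6, 12 and 24 h: CPM from estimated counts (upper panels) and deposited TPM (lower panels), both on log axes that differ between panels, with 1 point per library and a bar at the mean of 3. Cebpb spans 2.19 to 48.2 CPM, while Cebpg spans 37.9 to 64.8 CPM.

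Cebpb, which encodes C/EBPβ, differed most with dDAVP and also between replicates. In CPM, the vehicle libraries at 3 h read 2.19, 5.58 and 21.3 and the dDAVP libraries 48.2, 45.1 and 16.4. The third vehicle library was above the third dDAVP library, so the groups overlapped. At 6 h the vehicle libraries read 4.62, 3.35 and 2.73 CPM and the dDAVP libraries 8.05, 34.5 and 42. Every dDAVP library was above every vehicle library at that time. At 12 h the order turned, with 19.2, 14.8 and 3.09 CPM in vehicle and 3.58, 2.88 and 3.35 CPM with dDAVP. Here the third vehicle library lay among the dDAVP libraries. At 24 h vehicle libraries read 9.68, 11.4 and 11.7 CPM and dDAVP libraries 7.8, 4.6 and 3.17 CPM, all of the latter below all of the former.

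The log2 difference of Cebpb between dDAVP and vehicle was 2.98 ± 0.659 (SE) at 6 h (7.91-fold, n = 3 against 3, edgeR quasi-likelihood adjusted p = 0.0133). At 3 h it was 1.92 ± 0.606 (adjusted p = 0.289), at 12 h -1.93 ± 0.655 (adjusted p = 0.917) and at 24 h -1.07 ± 0.635 (adjusted p = 1). A test of whether the effect depended on time gave F = 13.2 and, by edgeR, an adjusted p of 0.03, with fitted differences from the 3 h effect of 1.06 at 6 h, -3.85 at 12 h and -2.99 at 24 h in log2 units. Averaged over the 4 times the difference was 0.48 ± 0.315 (adjusted p = 0.211). In bulk RNA, fewer cells carrying a transcript and less of it per cell cannot be told apart.

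The counts of members called follow from these fits. At 3 h 0 of 5 members passed an adjusted p of 0.05, where 0.484% of all genes tested did. By DESeq2 the count was also 0, and 1 member, Cebpb, had an unadjusted edgeR p under 0.05. At 6 h 2 of 5, Cebpb and Ddit3, were called higher, beside 38.1% of all genes called and 20.9% called higher. At 12 h the count was 0 (0.0773% of genes; 1 member, again Cebpb, had an unadjusted edgeR p under 0.05) and at 24 h it was 0 (0.0841%; 0 members had an unadjusted edgeR p under 0.05). DESeq2 called 0 at both times. Cebpb was the only member with a time-dependent effect, beside 0.343% of genes. A share of 2 in 5 at 6 h is close to the background of that comparison. Groups that did not overlap, with dDAVP higher, made up 29.8% of genes at 6 h in CPM and 0.884% in TPM, and Cebpb was among both. At 24 h, groups that did not overlap with dDAVP lower made up 5.92% of genes in CPM and 7.53% in TPM, and again Cebpb was in both.

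The wide spread of Cebpb was present in both deposited tables, which are Salmon estimates of the same libraries and so no independent check of each other. In TPM its libraries read 1.46, 3.12 and 10.3 (vehicle) against 24, 19.4 and 7.1 (dDAVP) at 3 h. At 6 h they read 2.35, 1.71 and 1.25 against 2.89, 10.9 and 14.7. At 12 h they read 10.8, 5.83 and 1.43 against 1.66, 1.31 and 1.3, and at 24 h 4, 4.21 and 5.29 against 3.18, 1.73 and 1.28. The 3 libraries of a group stood in the same order in CPM and TPM in 7 of 8 groups; the exception was dDAVP at 12 h, where the 3 values differed by 1.24-fold in CPM. Within a group, the highest library exceeded the lowest by 1.21- to 9.73-fold in CPM and by 1.28- to 7.55-fold in TPM. Vehicle at 3 h (9.73-fold in CPM), vehicle at 12 h (6.21-fold) and dDAVP at 6 h (5.22-fold) were the widest. Rescaling TPM without Gm24245 left these 3 ratios at 7.73, 7.2 and 5.33.

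The log2 ratio of TPM to count, centred on the median gene of each library, varied little for Cebpb, with an SD of 0.018 over the 24 libraries. Only 5.48% of 12709 genes had a smaller SD, and the median gene had 0.05. Cebpb has 1 transcript, so its TPM and count can part only through effective length and library scaling. In genes with several transcripts this ratio can also move with their mix. A small SD for Cebpb was thus largely fixed beforehand. The library pattern was present in the counts themselves, which ran from 52.9 to 1097.5 estimated counts. For Ddit3 this SD was 0.02. It was larger for Cebpd (0.098), Cebpg (0.11) and Cebpa (0.12). For Cebpg the CPM and TPM put the 3 libraries of a group in the same order in 1 of 8 groups, and for Ddit3 and Cebpd in 3 of 8.

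**Figure D2:**
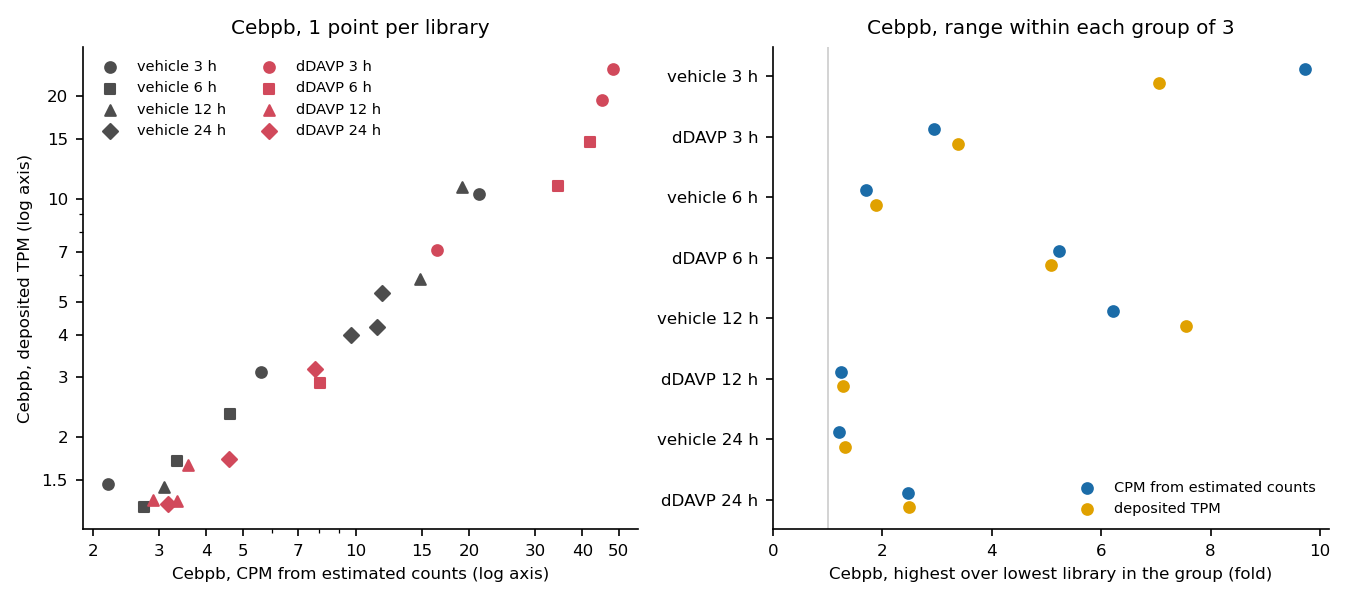
Cebpb in the 2 deposited tables. The left panel sets CPM (x, log axis) against TPM (y, log axis) with 1 point per library, and the right panel gives the fold between the highest and lowest of the 3 libraries in each group; the points follow one line, and the fold reaches 9.73 in CPM and 7.55 in TPM.

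Replicates of Cebpb varied more than those of nearly all genes that reach 5 CPM in a group. Its wide spread in these data was known beforehand and prompted this measure, so its rank is a description with no test. The SD of its log2 level within groups was 0.93, rank 36 of 12747, where the median gene had 0.17. In TPM the SD was 0.85 (rank 39). Ddit3 had an SD of 0.23 in CPM (rank 2447) and Cebpg 0.16 (rank 7212). Cebpa and Cebpd, both under 5 CPM, had 0.25 and 0.16. Leaving out the third replicate of every group lowered the Cebpb SD to 0.63, and leaving out the second raised it to 1.24.

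A single library decided some of the calls on Cebpb. Without the third vehicle library at 3 h, which read 21.3 CPM, the 3 h difference was 3.25 with an edgeR adjusted p of 0.00952. At 6 h the difference stayed between 2.57 and 3.43 when each library was left out, but the adjusted p rose to 0.0721 without the second vehicle library and to 0.0669 without the second dDAVP library. The adjusted p for time dependence ranged from 0.00176 to 0.0912 over the 24 libraries left out in turn and passed in 11 of them. With TPM in place of counts (limma on log2(TPM + 1)), the 6 h difference was 1.72 with an adjusted p of 0.0438, and time dependence had an adjusted p of 0.336. The 1 added to TPM shrinks this difference, since vehicle libraries at 6 h read 1.25 to 2.35 TPM. Its size is therefore not comparable with 2.98.

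Many other genes followed the same library pattern as Cebpb. The 3 most like it over the 24 libraries were Slain1 (Pearson r = 0.98), a microtubule plus-end protein, Itgb5 (r = 0.97), the integrin β5 subunit, and Ube2m (r = 0.97), a NEDD8-conjugating enzyme. The libraries share one protocol, and these values describe them with no test. In all, 42 of 12746 expressed genes had r over 0.9 with Cebpb. Their median GC content over the first 500 bases was 72.9%, against 56.6% for all, and 38.1% of them had at least 75% GC there, against 2.42% of all. The first 500 bases of Slain1, Itgb5 and Ube2m hold 76.6%, 70% and 75.6% GC.

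Itgb5 read 42.3, 70 and 131 CPM in vehicle and 191, 214 and 116 CPM with dDAVP at 3 h, so the third vehicle library again exceeded the third dDAVP library. Slain1 did so too, at 7.26, 13.2 and 25.3 CPM against 29, 33.5 and 22.3 CPM. In Ube2m the same libraries read 7.96, 13.8 and 27.4 CPM against 34, 37.6 and 24.5 CPM. Each of the 3 genes passed at 6 h and for time dependence, as Cebpb did. They were chosen for likeness to Cebpb over these same libraries, which largely fixed this outcome, so their p-values are no separate support. In Slain1, Itgb5 and Ube2m, in that order, the 6 h differences were 1.38, 1.47 and 1.44 in log2 units (edgeR adjusted p = 0.0172, 0.00818 and 0.0133), and at 12 h they were -0.92, -0.55 and -0.76 (adjusted p = 0.917 each). Their edgeR adjusted p for time dependence, in the same order, was 0.0332, 0.03 and 0.0328.

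Across libraries, log2 Cebpb moved with the GC-rich level, which leaves out the members themselves. Pearson r was 0.75 and Spearman rho 0.77 over 24 libraries. This measure was taken up after the genes most like Cebpb were seen to be rich in GC, and 16 of the 42 closest genes belong to it, so the values are a description with no test. Without the 2 libraries farthest from the median GC-rich level r was 0.71, and for deviations from group means it was 0.57. At 3, 6, 12 and 24 h the mean GC-rich level of the vehicle libraries was -0.16, -0.16, 0.01 and 0.12, and that of the dDAVP libraries was 0.11, 0.25, -0.13 and -0.04. At each time its difference between dDAVP and vehicle had the sign of the Cebpb difference. With the GC-rich level in the model, the Cebpb difference at 6 h was 1.43 (edgeR adjusted p = 1) and time dependence had an adjusted p of 0.894, with 0% of all genes called for time dependence. This model was added after the data had been seen. At 6 h the GC-rich level was -0.24 to -0.11 in vehicle and 0.22 to 0.29 with dDAVP. These groups did not overlap, so treatment and the GC-rich level cannot be told apart at that time.

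**Figure D3:**
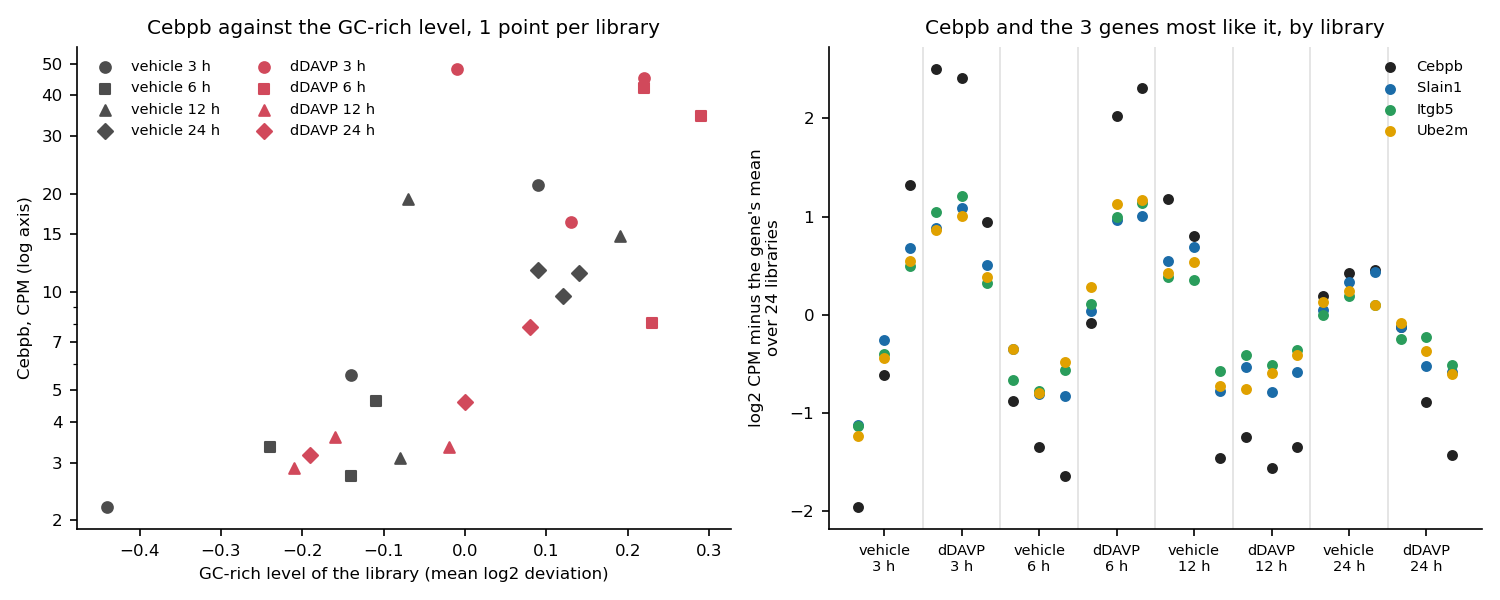
Cebpb beside the GC-rich level. The left panel sets the GC-rich level of each library (x, mean log2 deviation) against Cebpb CPM (y, log axis), and the right panel gives log2 CPM of Cebpb, Slain1, Itgb5 and Ube2m minus each gene's mean in the 24 libraries in order of group; all 4 genes are high or low in the same libraries (r of 0.97 to 0.98 with Cebpb).

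The receptor share related weakly to Cebpb (r = -0.26 over 24 libraries, two-sided permutation p = 0.216, adjusted p = 0.24 over the 10 relations of 5 members with 2 library measures). It was 0.544% ± 0.0756 (SD, n = 3) in vehicle and 0.203% ± 0.0754 with dDAVP at 6 h. The 6 h groups did not overlap, so at that time treatment cannot be told apart from the receptor share. With its log2 value in the model the Cebpb difference at 6 h was 2.78 (edgeR adjusted p = 0.195), where 0.336% of genes were called, and time dependence had an adjusted p of 0.0296, beside 0.256% of genes. No relation of Cebpb with Aqp2 was detected within a treatment. Pearson r was 0.17 over the 12 vehicle libraries (permutation p = 0.606, rho = 0.24) and -0.20 over the 12 dDAVP libraries (permutation p = 0.52, rho = -0.32), and without the 2 farthest libraries it was 0.00 and 0.21. Tmem189, which overlaps Cebpb on the opposite strand, had r = 0.52 with it over 24 libraries, and its own range was 71.6 to 148 CPM.

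Ddit3, the gene of the stress factor CHOP, also passed at 6 h. Vehicle libraries at 6 h ranged from 22.9 to 31.4 CPM and dDAVP libraries from 34.5 to 38.7 CPM, with no overlap, as for 29.8% of genes. The difference was 0.49 ± 0.168 in log2 units (1.4-fold, edgeR adjusted p = 0.0311). The call held in 2 of 6 fits with 1 library left out, those without the third vehicle or the third dDAVP library; over the 6 the difference was 0.40 to 0.64 and the adjusted p 0.0286 to 0.12. The median gene of at least 5 CPM differed by 0.32 in the same fit and the median of all genes tested by -0.39, so 0.49 for Ddit3 stands beside a general shift of expressed genes in the same direction. In TPM the same libraries overlapped, at 22.5 to 27.4 in vehicle and 22.9 to 25.7 with dDAVP. The difference was -0.04 on the log2(TPM + 1) scale (limma adjusted p = 0.732). At 6 h Gm24245 averaged 44.5% of TPM in vehicle and 50.7% with dDAVP. In TPM, 59.4% of genes had all dDAVP libraries lower. Rescaled without Gm24245, the Ddit3 groups still overlapped, with means of 44.5 ± 6.17 in vehicle and 48.5 ± 1.66 with dDAVP. Under the receptor share model the Ddit3 difference at 6 h was -0.05 (edgeR adjusted p = 0.986). At 3 h all 3 dDAVP libraries were lower in TPM (20.7 to 23.8 against 24.8 to 27.4), as were 20.7% of genes. Rescaled without Gm24245 they overlapped, at 38.3 to 42.8 with dDAVP and 39.6 to 47.6 in vehicle. The CPM groups also overlapped at 3 h, with a difference of 0.06 (edgeR adjusted p = 0.818). At 12 and 24 h the differences were 0.28 and -0.04 (adjusted p = 0.917 and 1).

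In vehicle alone, Ddit3 changed over the course. Its mean was 24.7 ± 5.02 CPM at 3 h, 26.3 ± 4.54 at 6 h, 30.2 ± 9.03 at 12 h and 39.6 ± 3.45 at 24 h (SD, n = 3 each), 0.68 log2 units higher at 24 h than at 3 h. It was the 1 member of 5 called over time in vehicle (edgeR adjusted p = 0.0309), where 10.1% of all genes were called. With each vehicle library left out the adjusted p was 0.00316 to 0.177 and passed in 6 of 12 fits; it was lost without the first or the second library at 3, 6 or 24 h. In TPM the vehicle means were 26.5 ± 1.48, 24.6 ± 2.48, 26.3 ± 3.53 and 31.2 ± 1.51, and the limma adjusted p was 0.068. Once the receptor share was a covariate the adjusted p was 0.855, and 2.59% of genes were called. That share averaged 0.652%, 0.544%, 0.493% and 0.233% in vehicle at the 4 times. Log2 Ddit3 and the log2 share had r = -0.89 over the 24 libraries (permutation p = 1e-05, the smallest these permutations can give, adjusted p = 5e-05; rho = -0.87) and r = -0.88 for deviations from group means. Leaving out the pair of libraries with the most extreme shares gave -0.87. CPM is divided by the TMM factor of the library. That factor was 1.326 in the library with the highest share (0.933%) and 0.8138 in that with the lowest (0.14%). Part of this relation is therefore built into the scaling, and its permutation p is no evidence particular to Ddit3.

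Cebpg, the partner of ATF4 without an activating domain, was the most even member. Its group means lay between 46.3 ± 9.61 CPM (vehicle at 12 h) and 62.3 ± 2.22 CPM (dDAVP at 24 h). The mean was higher with dDAVP at each time, with 58.1 (3 h), 61.9 (6 h), 54.8 (12 h) and 62.3 CPM (24 h) against 50.4, 49.5, 46.3 and 59.2 CPM in vehicle, and with overlapping libraries at every time. No single time passed, the closest being 6 h (log2 difference 0.32 ± 0.129, edgeR adjusted p = 0.0514). The mean over the 4 times did, at 0.21 ± 0.0645 (adjusted p = 0.0253). It passed in 20 of 24 fits with 1 library left out (edgeR adjusted p from 0.00183 to 0.0553), and was lost without the first vehicle or second dDAVP library at 3 h, the first vehicle library at 12 h or the third vehicle library at 24 h. That made 1 member of 5 for the mean effect, beside 33.1% of all genes called and 16.7% called higher. The median gene of at least 5 CPM had a mean effect of 0.14.

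In TPM the Cebpg difference was negative at 3, 6 and 24 h (-0.12, -0.15 and -0.07 by limma on log2(TPM + 1)) and positive at 12 h (0.11). At 3 h its dDAVP libraries (12.6 to 12.9 TPM) were all below its vehicle libraries (13.5 to 14.2 TPM), as were those of 20.7% of genes. With TPM rescaled without Gm24245 these groups overlapped, at 22.7 to 23.8 with dDAVP and 21.6 to 24.9 in vehicle. The mean effect of Cebpg was -0.06 by limma on log2(TPM + 1) (adjusted p = 0.187), or 0.01 with TPM rescaled without Gm24245. In vehicle over time Cebpg passed by limma on this scale (adjusted p = 0.0176), where it did not by edgeR on counts. Under the edgeR model that holds the receptor share the mean effect was 0.05 (adjusted p = 0.837, 1.22% of genes called). Cebpg had r = -0.84 with that share (permutation p = 1e-05, adjusted p = 5e-05; rho = -0.85; -0.84 without the 2 farthest libraries and -0.84 for deviations from group means). The genes most like Cebpg were Ostm1 (r = 0.94), Ppil4 (r = 0.93) and Ssr2 (r = 0.92), and those most like Ddit3 were H2afx, Hcfc1r1 and Atraid (r = 0.96 each). In all, 581 genes had r over 0.9 with Ddit3 and 38 with Cebpg. As for Ddit3, part of the relation of Cebpg with the receptor share is built into the TMM scaling of CPM. Its permutation p is no evidence particular to Cebpg. Cebpg and Ddit3 had r = 0.74 with each other.

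Cebpd, a cytokine- and cAMP-responsive relative of Cebpb, was low throughout. Its vehicle libraries ranged from 1.84 to 2.73 CPM and its dDAVP libraries from 2.89 to 3.56 CPM at 6 h. These groups did not overlap, as for 29.8% of genes in that direction. At 12 h they were also apart, at 1.77 to 2.21 against 2.37 to 2.42 CPM, as were 2.47% of genes in that direction. The differences were 0.40 ± 0.223 at 6 h (edgeR adjusted p = 0.134) and 0.30 ± 0.227 at 12 h (adjusted p = 0.917), and the mean effect was 0.25 ± 0.112 (adjusted p = 0.0818). In TPM both times overlapped. Scaling by median of ratios in place of TMM put the mean effect past the threshold, at 0.32 (adjusted p = 0.0485), and DESeq2 did so at 0.33 (adjusted p = 0.0451). Its nearest genes were Ctsw (r = 0.76), Srxn1 (r = 0.73) and Gnl3 (r = 0.72).

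Cebpa, the differentiation factor of the family, was the lowest member. Its group means ran from 0.372 ± 0.207 CPM (dDAVP at 3 h) to 0.738 ± 0.0853 CPM (vehicle at 12 h), and its groups overlapped at every time in CPM and TPM. Its differences ran from -0.51 ± 0.444 at 12 h to 0.25 ± 0.455 at 6 h, and no edgeR adjusted p was under 0.403 in any comparison. The SE of 0.443 to 0.475 log2 units at single times is the precision that this depth gave. The genes most like it reached r = 0.70 (Nhsl1), 0.69 (Cep83os) and 0.66 (Fnbp1), and none exceeded 0.9.

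**Figure D4:**
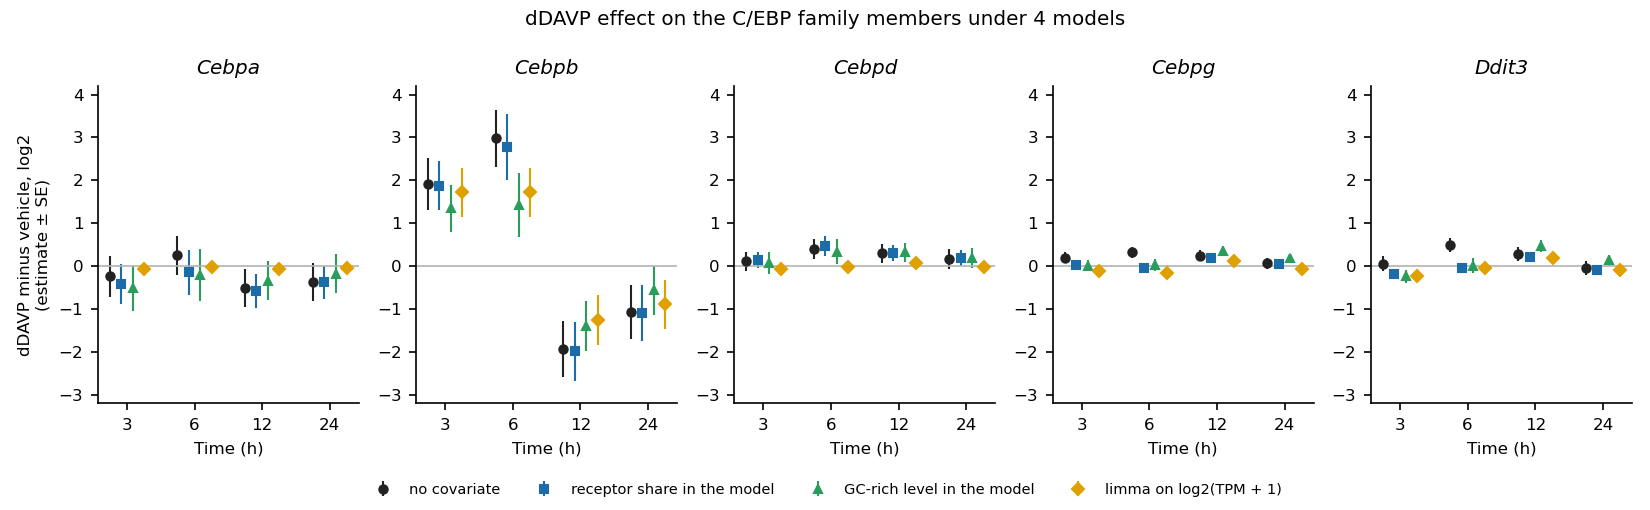
dDAVP minus vehicle (log2, estimate ± SE) for each member at 3, 6, 12 and 24 h under 4 models: edgeR with no covariate, with the receptor share, with the GC-rich level, and limma on log2(TPM + 1). Cebpb kept its sign at each time in all 4 models, at 1.43 to 2.98 at 6 h, while Ddit3 at 6 h lay between -0.05 and 0.49. The 1 added to TPM shrinks limma values and their SE at low levels. It exceeds every TPM of Cebpa (at most 0.221) and Cebpd (at most 0.658). For these 2 and Cebpb, limma sizes are not comparable with the edgeR sizes.

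The other genes of C/EBP pathways were taken from 5 lists. At 3 h 0 of their genes passed by edgeR (2 to 8 genes a list had an unadjusted p under 0.05), with list medians between -0.35 and 0.26 against -0.14 for all genes tested and 0.18 for those of at least 5 CPM. Among other C/EBP genes and bZIP partners, 5 of 15 tested were higher and 1 lower at 6 h, beside 20.9% and 17.2% of all genes. They included Atf4, the stress factor that pairs with C/EBPγ (0.53 ± 0.142, edgeR adjusted p = 0.0183), Atf3 (0.56 ± 0.156, adjusted p = 0.0195) and Jdp2 (0.40 ± 0.125, adjusted p = 0.0243). Batf was lower (-1.66 ± 0.494, adjusted p = 0.0209) at 0.323 against 1.07 CPM. In vehicle over time 4 of the 15 changed, beside 10.1% of all genes, led by the circadian factors Tef and Dbp (adjusted p = 4.33e-06 and 4.27e-05). Dbp rose from 7.07 ± 1.92 CPM at 3 h to 17.3 ± 4.16 at 12 h and read 14.4 ± 0.1 at 24 h, and Tef went from 34.2 ± 4.13 to 66.1 ± 4.02 CPM between 3 and 24 h (SD, n = 3).

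Of 20 stress targets of CHOP and ATF4, 14 were higher and 0 lower at 6 h, beside 20.9% and 17.2% of all genes. Their median was 0.44, against 0.32 for genes of at least 5 CPM and -0.39 for all genes tested. The general shift thus depended on level. The share called higher among genes of at least 5 CPM is not given here, so these counts are no measure of enrichment. Bbc3, a pro-apoptotic BH3 protein, was higher by 0.66 ± 0.151 (edgeR adjusted p = 0.015), with 13.2 ± 1.56 against 8.31 ± 0.181 CPM. Sesn2, a stress-induced inhibitor of mTORC1, was higher by 0.52 ± 0.135 (adjusted p = 0.0178), with 45.1 ± 2.37 against 31.4 ± 1.36 CPM. Psat1 of serine synthesis (0.48, adjusted p = 0.0188) and the amino acid transporter chain Slc3a2 (0.45, adjusted p = 0.0196) followed. At 12 and 24 h 0 of 20 passed by edgeR with no covariate, with 3 and 1 at an unadjusted p under 0.05. Over the 4 times 13 were higher, beside 16.7% of all genes and with a list median of 0.20 against 0.14 for genes of at least 5 CPM, led by Sesn2 (0.42 ± 0.0676, adjusted p = 3.43e-04) and the oxidase Ero1l (0.35 ± 0.0679, adjusted p = 0.00343). In vehicle over time 10 of 20 changed, beside 10.1% of all genes, among them Ero1l, Chac1, Sesn2 and Trib3 (adjusted p = 7.29e-05, 0.00317, 0.00455 and 0.00688).

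Acute phase and inflammatory targets of C/EBPβ and C/EBPδ moved in both directions at 6 h. Of 15 tested, 2 were higher and 2 lower, shares below those of all genes (20.9% and 17.2%). The complement component C3 was higher by 1.02 ± 0.152 (edgeR adjusted p = 3.14e-04) and the prostaglandin synthase Ptgs2 by 0.84 ± 0.155 (adjusted p = 0.00336). Il6 (-1.09 ± 0.365, edgeR adjusted p = 0.0286) and Saa3 (-0.85 ± 0.333, adjusted p = 0.0469) were lower. Both were lowly expressed, Il6 at 0.496 against 1.06 CPM and Saa3 at 1.44 against 2.62 CPM. In the same fit the median was -0.39 for all genes tested and 0.32 for those of at least 5 CPM. Direction thus went with level over all genes. At 3 h C3 differed by 0.47 ± 0.152 (adjusted p = 0.305). C3 was the list's only call at 12 h (1.45 ± 0.151, adjusted p = 4.09e-06) and 24 h (1.63 ± 0.152, adjusted p = 6.18e-07). Its level at 24 h was 68.5 ± 4.6 CPM with dDAVP and 22.1 ± 3.26 CPM in vehicle, and its effect depended on time (adjusted p = 0.0328). The C3 difference was larger at each later time, while that of Cebpb was positive at 3 and 6 h and negative at 12 and 24 h.

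Of 15 differentiation and metabolic targets of C/EBPα tested, 4 were higher and 3 lower at 6 h, again beside 20.9% and 17.2% of all genes. Klf5 (0.52 ± 0.132, edgeR adjusted p = 0.0175), Cdkn1a (0.51 ± 0.145, adjusted p = 0.0196) and Fasn (0.39 ± 0.128, adjusted p = 0.0262) were higher. Pck1 was lower (-1.34 ± 0.412, edgeR adjusted p = 0.0227), at 0.837 against 2.12 CPM. Like Batf, Il6 and Saa3, it was lowly expressed, and the median of all genes tested was lower at 6 h (-0.39). Of 19 regulators of C/EBP levels and activity, 14 were higher and 0 lower at 6 h, beside the same shares of all genes. Their median was 0.38, against 0.32 for genes of at least 5 CPM. As for the stress targets, these counts are no measure of enrichment. The 14 regulators included Rb1 (0.60 ± 0.131, edgeR adjusted p = 0.0121), the kinase Rps6ka1 (0.57 ± 0.125, adjusted p = 0.0124), the ubiquitin ligase subunit Fbxw7 (0.48 ± 0.11, adjusted p = 0.0154) and Stat3 (0.44 ± 0.12, adjusted p = 0.0188). At 12 and 24 h 0 genes of either list passed by edgeR; at an unadjusted p under 0.05 there were 2 regulators at 12 h and 0 otherwise. The partner list likewise gave 0 at both times, and 0 at the unadjusted threshold.

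With the receptor share as a covariate, C3 was the 1 gene of the 5 lists called at 6 h (0.78 ± 0.165, edgeR adjusted p = 0.0265). This stood beside 0.336% of all genes, and the list medians lay between -0.04 and 0.11. At 6 h neither the receptor share nor the GC-rich level can be told apart from treatment. With the GC-rich level in the edgeR model 0 were called at 6 h, beside 0.168% of all genes, and 2 genes, both of the acute phase list, had an unadjusted p under 0.05. At 12 h this model called 3 stress targets that the model with no covariate did not, Sesn2 (0.64 ± 0.0992, edgeR adjusted p = 9.86e-04), Ero1l (0.57 ± 0.108, adjusted p = 0.00896) and the lipoprotein receptor Vldlr (0.47 ± 0.105, adjusted p = 0.0341), beside 0.709% of all genes. The median of the 20 was 0.26 there, and 12 had an unadjusted p under 0.05. C3 was called at 12 and 24 h under this model (1.56 and 1.74, edgeR adjusted p = 6.04e-08 and 9.85e-09) and Ptgs2 at 24 h (0.65 ± 0.142, adjusted p = 0.0491), beside 0.229% of genes at 24 h. Vldlr was named after its values were seen. C3 at 12 and 24 h was 1.41 and 1.60 higher under the receptor share model.

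**Figure D5:**
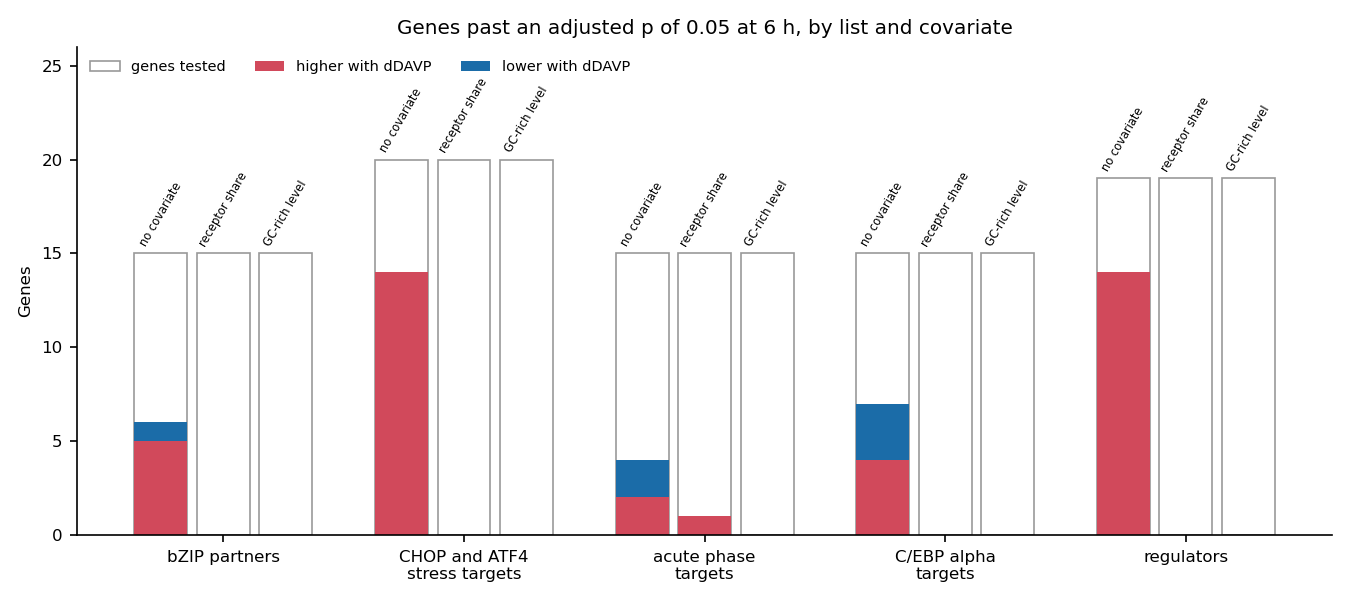
Genes of the 5 lists past an adjusted p of 0.05 at 6 h (bars from 0): open bars give genes tested, red genes higher and blue genes lower with dDAVP, under no covariate, the receptor share or the GC-rich level. The 14 of 20 stress targets and 14 of 19 regulators called with no covariate become 0 with either covariate. Of all genes, 38.1% were called with no covariate, 0.336% with the receptor share and 0.168% with the GC-rich level. At 6 h both measures differed between dDAVP and vehicle without overlap, so neither can be told apart from treatment there.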

How the data were processed

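The deposited tables hold TPM and estimated counts per Ensembl gene for 24 libraries. The submitters' processing notes name Salmon 0.14.10 and GRCm38.p6. The estimated counts were made by the authors and rounded here; the TPM values were used as deposited, since TPM keeps no depth. Libraries came from total RNA through a SMART-Seq HT and Nextera protocol, per the labels' protocols; strand use in counting is not given in the sources used here.

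One edgeR 4.0.16 quasi-likelihood model (R 4.3.3) with TMM scaling and 8 group means was fitted to the 29743 genes that passed filterByExpr, and p-values were adjusted over all of them by Benjamini-Hochberg at 0.05. CPM values are TMM-scaled. Alternatives used DESeq2 1.42.0, limma 3.58.1 on log2(TPM + 1), the log2 receptor share, the GC-rich level and each library left out. In a simulation of the 6 h comparison with 29743 genes tested, 41.8% of 67 genes changed 1.5-fold, 89.6% of 67 changed 2-fold and 98.5% of 66 changed 4-fold were recovered, with 3.2% false calls. Far fewer genes were changed there than the 38.1% called in the 6 h data, so these rates need not hold for those data. Nor need they hold for Cebpb, whose SD within groups was 0.93 against 0.17 for the median gene, or for Cebpa at its low counts. Correlations used log2(CPM + 0.5). No 2 libraries of a group agreed within sampling noise (chi-square per gene 2.65 to 41).

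The genes named are the 5 members, Aqp2, up to 4 called genes per list and comparison by smallest p, and the 3 genes most like each member. The members and lists were chosen with earlier results of these data known. Figures were drawn with matplotlib 3.10.9.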

Additional observations from a re-analysis of the deposited data

Results flagged for a closer look

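The effect of dDAVP on Cebpb differed between the 4 times, with an edgeR quasi-likelihood adjusted p of 0.03 for time dependence. It is listed because the difference between times was itself tested. The log2 difference was 1.92 at 3 h, 2.98 at 6 h, -1.93 at 12 h and -1.07 at 24 h. The GC-rich level of the libraries differed between dDAVP and vehicle with the same signs, and with that level in the model the adjusted p for time dependence was 0.894. With the receptor share in the model it was 0.0296. Groups of 3 libraries are too small for the test for a library that stands apart, so none is listed on that ground. The effect also differed between the times for Aqp2 (edgeR adjusted p = 0.03) and for C3 (edgeR adjusted p = 0.0328). It did so too for Slain1, Itgb5 and Ube2m (edgeR adjusted p = 0.0332, 0.03 and 0.0328). These genes were chosen for their likeness to Cebpb over the same libraries, so their values are no further support.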

How the results depend on the processing

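Of 5 members, edgeR called 2 at 6 h (Cebpb and Ddit3), 1 for the mean effect (Cebpg), 1 for time dependence (Cebpb) and 1 for vehicle over time (Ddit3). Of all genes it called 38.1%, 33.1%, 0.343% and 10.1%, in that order. At 6 h the count was 1 (Cebpb) with median-of-ratios scaling, no filter, a filter of 5 CPM, limma on log2(TPM + 1), on log2(TPM + 0.1) or without Gm24245, and effective length offsets. It was 0 with the receptor share, alone or with the replicate block, with the GC-rich level, and at a threshold of 0.01. For the mean effect it was 2 with median-of-ratios scaling and DESeq2 (Cebpd and Cebpg) and with the replicate block (Cebpg and Ddit3). It was 0 with the 5 CPM filter, either covariate, the replicate block with the receptor share, the 0.01 threshold, the 3 TPM fits and effective length offsets. Time dependence gave 0 with median-of-ratios scaling, the 5 CPM filter, the replicate block with the receptor share, the 0.01 threshold, the 3 TPM fits, effective length offsets and the GC-rich level. Vehicle over time gave 0 with median-of-ratios scaling, either covariate, the replicate block with the receptor share, the 0.01 threshold, only the libraries compared, and effective length offsets. In the 3 TPM fits the member called over time was Cebpg (adjusted p 0.0176 to 0.0196) and not Ddit3 (0.0524 to 0.0763). The causes were not tested. Shares of all genes called moved too. With the receptor share they were 0.336% at 6 h, 1.22% for the mean effect, 0.256% for time dependence and 2.59% for vehicle over time. With the GC-rich level they were 0.168%, 2.14%, 0% and 1.13%. Shares under the other settings are not given here, so a change in these counts is no result about the members alone. Leaving out each library in turn gave 0 to 1 member called at 3 h, 0 to 3 at 6 h, 0 to 1 for time dependence, 0 to 3 for the mean effect and 0 to 2 for vehicle over time. The Cebpb SD within groups was 0.63 to 1.24 without a replicate number, and the SD of its TPM-to-count ratio was 0.23 with no centring of each library.

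Signs turned in 46 of 464 single-gene values under other settings and in 5 of 420 with a library left out, none of them called under the new setting. On log2(TPM + 1) and then log2(TPM + 0.1), the values that turned at 3 h were Cebpd -0.07 and -0.16, Cebpg -0.12 and -0.12, and Ddit3 -0.23 and -0.24. At 6 h they were Cebpa -0.02 and -0.09, Cebpd -0.03 and -0.09, Cebpg -0.15 and -0.17, and Ddit3 -0.04 and -0.04. At 24 h they were Cebpd -0.01 and -0.01, and Cebpg -0.07 and -0.08. For the mean effect they were Cebpd -0.01 and -0.01, Cebpg -0.06 and -0.06, and Ddit3 -0.04 and -0.04. Without Gm24245 the turned values were Cebpd -0.04, Cebpg -0.01 and Ddit3 -0.12 at 3 h, Cebpa -0.00 at 6 h, and Cebpd -0.01 and Cebpg -0.08 at 24 h. With the receptor share, and then also the replicate block, Ddit3 at 3 h was -0.18 and -0.18, Cebpa at 6 h -0.14 and -0.38, Cebpg at 6 h -0.04 and -0.07, Ddit3 at 6 h -0.05 and -0.05, and the mean effect of Ddit3 -0.03 and -0.03. With the GC-rich level Ddit3 was -0.24 at 3 h and 0.14 at 24 h, and Cebpa -0.21 at 6 h. Ddit3 was -0.09 at 3 h with the 5 CPM filter, and 0.00 at 24 h with median-of-ratios scaling and DESeq2. With a library left out, the values ran at 3 h from -0.66 to 0.10 for Cebpa (above 0 without the third vehicle or the third dDAVP library), from -0.00 to 0.28 for Cebpd and from -0.09 to 0.21 for Ddit3 (both lowest without the first vehicle library). At 24 h Ddit3 ran from -0.13 to 0.00 (highest without the third dDAVP library). Cebpb kept its sign at each time under every setting run.

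Samples were taken as unpaired, and whether equal replicate numbers mark pairs is not settled. Same-numbered deviations correlated at -0.48 to 0.68, over 0.1 in 5 of 12 pairs. Without a reference for unpaired libraries these values cannot decide it. With the replicate block 3 members were called at 6 h, and Cebpb time dependence had an adjusted p of 0.0442. The alternatives with the GC-rich level, effective length offsets and TPM without Gm24245 were chosen after seeing the data. Counts under 100 limit Cebpa and Cebpd in every library. They also limit Cebpb in some, among them all vehicle libraries at 6 h (89, 68.8 and 59) and all dDAVP libraries at 12 h (83.4, 62.8 and 68).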
